A study of Rattus norvegicus with 2 samples.

Results

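Cathepsins are proteases that work mainly in the endosome and lysosome. The 10 genes described here are Ctsa, Ctsb, Ctsc, Ctsd, Ctsf, Ctsh, Ctsk, Ctsl, Ctss and Ctsz, chosen by symbol, and all 10 were found in the platform annotation. They were read by 12 probe sets of the 31042 on the array that are not manufacturer's controls, because Ctsl and Ctsc have 2 probe sets each. A probe set is a group of short probes on the array that read the same transcript. Among all genes with 1 symbol, 9956 were measured, and the 10 cathepsins are among them.

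The RNA came from adductor muscle, on the inner thigh, of male Lewis rats of 275 g, whose age the labels do not give. In the stimulated group, the left hindlimb had been pricked 100 times with a stainless needle of 0.14 mm over a 10 mm square, and muscle was taken 24 hours later. In the control group, muscle came from the right hindlimb, which had not been pricked. Each group is 1 array, and neither the number of rats nor a shared animal of origin is given in the labels. No difference below therefore has a replicate check, no test was possible, and "higher" and "lower" describe these 2 pieces of muscle.

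Most cathepsins are made as inactive proenzymes, carried to the lysosome by the mannose 6-phosphate receptors and activated there by acid and by other proteases. The family shares a location and not a mechanism, since most members cut with a catalytic cysteine, cathepsin D with aspartates and cathepsin A with a serine. In muscle fibres they degrade protein and organelles delivered by autophagy, and in macrophages they digest engulfed debris and prepare antigen for MHC class II molecules. Cystatins, small proteins that plug the active site, hold the cysteine cathepsins in check.

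Muscle identity was clear on both arrays, with 11 of 11 annotated skeletal muscle markers measured, among them Ckm, the muscle creatine kinase, with a signal of 12064 in the stimulated and 16392 in the control limb. The trimmed mean signal was 76.5 on each array. The signal floor of 19.8, the median of all signals, was reached by 48.9% of probe sets in the stimulated limb and 51.1% in the control limb. RNA integrity, read as the 3' over 5' signal of beta-actin, came to 2.43 in the stimulated limb, against 2.26 in the control limb. Error could be judged only where a gene had several probe sets. Over 2174 such genes this gave an SD of 0.31 for a single probe set's log2 ratio, and of 0.25 in the 724 brightest. It leaves out variation between limbs and animals. All log2 ratios are stimulated over control, as the authors scaled the arrays, where the median gene lay at 0.019. Scaling to the hybridisation spike-ins, which were lower on the stimulated array in 18 of 18 probe sets, would add 0.38 to the ratio of each gene above the floor on both arrays, and less where a signal lies near or below it.

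Of the 10 cathepsin genes, 7 were higher in the stimulated limb as deposited, against 52.3% of all measured genes. With spike-in scaling 9 were, but the median of all genes then stood at 0.39 itself. The 7 were the lysosomal proteases Ctsd, Ctsb and Ctsl at 1.90-fold, 1.89-fold and 1.76-fold, followed by Ctsz, Ctsc, Ctsa and Ctss at 1.53-fold to 1.30-fold. Ctsf and Ctsh lay within the SD of a single probe set, and Ctsk was lower, with a log2 ratio of -0.59. At least a 1.5-fold difference was reached by 4 genes in the higher direction, where 6.59% of measured genes lay, and by 1 gene, Ctsk, in the lower, where 6.94% lay. Ctsk passed that mark narrowly and was short of it with quantile normalization (log2 ratio -0.56), with the median log2 ratio set to 0 (-0.57) and with spike-in scaling (-0.20). At least 2-fold higher were 0 of the 10, against 1.43% of all genes. The median log2 ratio of the family was 0.57, against 0.019 for all measured genes. All 12 probe sets were above the floor on both arrays, so none of these ratios is a bound.

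**Figure D1:**
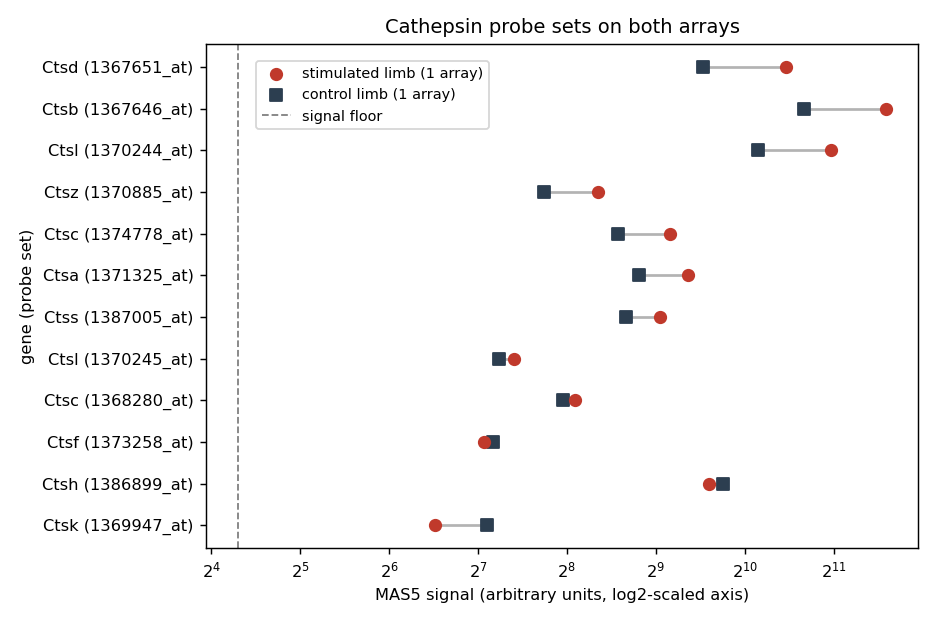
MAS5 signal (arbitrary units, log2-scaled axis) of each of the 12 cathepsin probe sets, with the stimulated limb as circles and the control limb as squares, 1 array each. The circle lies to the right of the square for Ctsd, Ctsb, Ctsl, Ctsz, Ctsc, Ctsa and Ctss and to its left for Ctsf, Ctsh and Ctsk, a difference that turns round for Ctsf and Ctsh with spike-in scaling. The dashed line is the signal floor of 19.8.

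Brightness also depends on the probes, so the signals of different genes are not set against each other here. The members differed in brightness all the same, and 4018 measured genes had a mean signal within the range spanned by the cathepsins. Among those, 5.08% were at least 1.5-fold higher and 57.9% lay above 0. Of the cathepsins, 40% were at least 1.5-fold higher.

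Ctsd (Entrez gene 171293) encodes cathepsin D, the main aspartic protease of the lysosome. Its probe set 1367651_at gave a signal of 1412 in the stimulated and 742 in the control limb. The log2 ratio was 0.93, rank 182 from the highest of 9956 genes, and it was 2.98 times the SD of a single probe set. Ctsb (Entrez gene 64529) encodes cathepsin B, a cysteine protease that can both trim dipeptides from the carboxyl end and cut within a chain. Its probe set 1367646_at read 3085 in the stimulated and 1629 in the control limb, with a log2 ratio of 0.92 and rank 185. The signals of these 2 genes, which use unrelated catalytic mechanisms, thus differed between the limbs by nearly the same factor.

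Ctsl (Entrez gene 25697) encodes cathepsin L, a cysteine endopeptidase of lysosomes that is known to be induced in several forms of muscle atrophy in rodents. Its brighter probe set 1370244_at read 2001 in the stimulated and 1135 in the control limb, a log2 ratio of 0.82 and rank 264. The dimmer probe set 1370245_at read 169 in the stimulated and 150 in the control limb, a log2 ratio of 0.17. Both probe sets were higher in the stimulated limb, but the excess of the second was within the SD of a single probe set. The median of both was 0.49, so the size of the Ctsl difference rests on which probe set is read.

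Ctsz (Entrez gene 252929) encodes cathepsin Z, also called cathepsin X, a carboxypeptidase found largely in cells of the immune system. It read 327 in the stimulated and 214 in the control limb, with a log2 ratio of 0.61. Ctsc (Entrez gene 25423) encodes cathepsin C, the dipeptidyl peptidase that activates the serine proteases of neutrophils, mast cells and cytotoxic lymphocytes. Its brighter probe set 1374778_at read 573 in the stimulated and 382 in the control limb, a log2 ratio of 0.58. That is 1.498-fold, just short of the 1.5-fold mark that Ctsz passed. The other probe set, 1368280_at, read 272 in the stimulated and 248 in the control limb, a log2 ratio of 0.13. As with Ctsl, the dimmer probe set pointed the same way with a difference smaller than the probe set SD.

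Ctsa (Entrez gene 296370) encodes cathepsin A, a serine carboxypeptidase also known as protective protein, which stabilises the sialidase Neu1 and the beta-galactosidase Glb1 in a lysosomal complex. It read 656 in the stimulated and 449 in the control limb, a log2 ratio of 0.55. Its partners lay closer to 0, Neu1 with a log2 ratio of 0.23 and Glb1 with 0.04, both within the probe set SD. Ctss (Entrez gene 50654) encodes cathepsin S, the cysteine protease of antigen-presenting cells that cuts the invariant chain, the product of Cd74. It read 531 in the stimulated and 407 in the control limb, a log2 ratio of 0.38 and rank 1469, while Cd74 had a log2 ratio of 0.41. Ctss was thus the member with the smallest excess among the 7 that were higher.

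The remaining 3 members were not higher. Ctsh (Entrez gene 25425), the aminopeptidase cathepsin H, read 777 in the stimulated and 864 in the control limb, a log2 ratio of -0.15 that became 0.23 with spike-in scaling. Ctsf (Entrez gene 361704), the widely expressed endopeptidase cathepsin F, read 134 in the stimulated and 144 in the control limb, a log2 ratio of -0.10 that became 0.28. Neither differed by more than the probe set SD. Ctsk (Entrez gene 29175) encodes cathepsin K, the collagen-degrading protease of osteoclasts that fibroblasts also make. Its probe set 1369947_at read 91.5 in the stimulated and 137 in the control limb. The log2 ratio of -0.59, or -0.20 with spike-in scaling, was rank 683 from the lowest of 9956 genes.

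**Figure D2:**
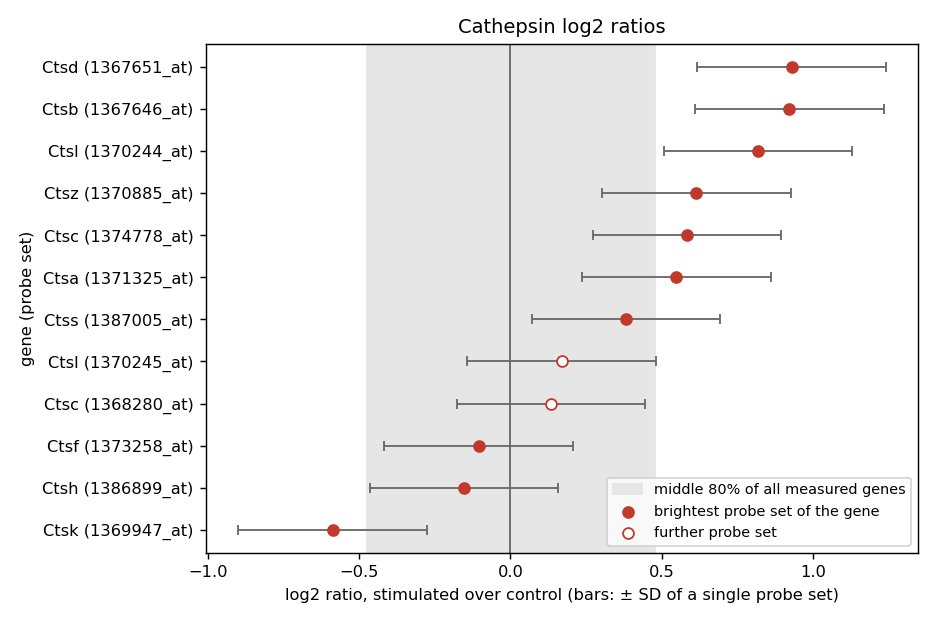
Log2 ratio of stimulated over control for the 12 cathepsin probe sets, with bars of ± the SD of a single probe set (0.31), filled points for the probe set that stands for its gene and open points for the further probe sets of Ctsl and Ctsc. The grey band holds the middle 80% of all measured genes, -0.47 to 0.48: the 6 genes Ctsd, Ctsb, Ctsl, Ctsz, Ctsc and Ctsa lie to its right and Ctsk to its left. Spike-in scaling would move each point right by 0.38, which takes Ctsf and Ctsh past 0.

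Counted by mechanism, the 4 cysteine exopeptidases (Ctsb, Ctsc, Ctsh and Ctsz) had a median log2 ratio of 0.60, and the 4 cysteine endopeptidases (Ctsf, Ctsk, Ctsl and Ctss) one of 0.14. The endopeptidases spread from -0.59 for Ctsk to 0.82 for Ctsl and the exopeptidases from -0.15 for Ctsh to 0.92 for Ctsb. The ranges of both classes overlapped widely. In all, 7 of the 10 genes exceeded the probe set SD upwards, where 19.5% of all genes did, and 1 downwards, where 18% did.

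The promoters of 4 members are printed because the expression data contrast them: Ctsd and Ctsf hold the same E-box letters and had different ratios, and Ctsk and Ctss are close neighbours with ratios of opposite sign. Each is the stretch of 250 bases before the annotated start of the gene, on the gene's own strand, from RefSeq on build GRCr8. The table matched 9 of the 10 members, all but Ctsb. Capitals mark CACGTG in the first pair, the core of the element that the lysosomal regulators TFEB and TFE3 bind in mouse and human cells. In the second pair they mark GAGGAAG on either strand, a form of the ETS element bound by the myeloid factor PU.1 among others.
Ctsd, chr1:206968822-206969071, minus strand: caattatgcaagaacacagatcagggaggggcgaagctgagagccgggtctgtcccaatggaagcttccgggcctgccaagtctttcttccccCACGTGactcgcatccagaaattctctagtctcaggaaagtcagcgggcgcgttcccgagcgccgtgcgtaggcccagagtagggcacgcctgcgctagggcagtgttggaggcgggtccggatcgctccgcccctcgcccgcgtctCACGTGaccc
Ctsf, chr1:211581919-211582168, plus strand: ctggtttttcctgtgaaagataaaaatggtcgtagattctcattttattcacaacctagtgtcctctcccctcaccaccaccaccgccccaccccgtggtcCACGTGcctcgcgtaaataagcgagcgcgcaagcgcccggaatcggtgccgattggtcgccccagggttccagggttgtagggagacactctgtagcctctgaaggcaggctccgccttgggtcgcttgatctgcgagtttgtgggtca
Ctsk, chr2:185747298-185747547, plus strand: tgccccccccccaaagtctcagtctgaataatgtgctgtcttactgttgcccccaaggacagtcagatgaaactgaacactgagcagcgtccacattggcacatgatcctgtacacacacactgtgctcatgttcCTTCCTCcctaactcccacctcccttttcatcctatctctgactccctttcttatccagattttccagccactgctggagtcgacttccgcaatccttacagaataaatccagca
Ctss, chr2:185775146-185775395, plus strand: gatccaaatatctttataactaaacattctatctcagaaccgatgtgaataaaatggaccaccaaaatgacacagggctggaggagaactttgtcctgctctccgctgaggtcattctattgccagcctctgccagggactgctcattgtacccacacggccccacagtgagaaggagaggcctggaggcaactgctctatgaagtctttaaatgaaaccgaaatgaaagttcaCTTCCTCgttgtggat

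The Ctsd stretch held CACGTG at 2 places, 157 to 152 and 10 to 5 bases before the start, and the Ctsf stretch at 1, 149 to 144 bases before it. Both Ctsd copies also matched TCACGTG, a longer motif that contains CACGTG, on at least 1 strand, and none of the 8 other matched members held it. Among 33469 promoters of the same length, 5.59% held CACGTG, 2.79% held TCACGTG and 10.2% held GAGGAAG. That ETS-type motif was found in 5 of 9 members, Ctsc, Ctsh, Ctsk, Ctss and Ctsz, whose log2 ratios ran from -0.59 to 0.61. TGANTCA, an AP-1 type motif, was in 0 of 9 members and in 6.34% of promoters. A match describes the letters alone. As deposited, both CACGTG and the ETS-type motif occurred in members above and in members below 0.

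Inhibitors of the family were measured beside it. Of 15 inhibitor genes with a probe set, 7 were measured, with a median log2 ratio of 0.44. Of the 7, 5 lay above 0, against 52.3% of all measured genes, and 3 were at least 1.5-fold higher, against 6.59%. The list was drawn widely, as the 7 include Cd74, with a log2 ratio of 0.41, and the 3 include Serpinb1a, described below. Cstb, cystatin B, which holds cathepsins B, H, L and S in check inside the cell, was 3.05-fold higher, with a signal of 778 in the stimulated and 255 in the control limb. Its log2 ratio of 1.61, rank 37, exceeded that of every cathepsin. The secreted inhibitor cystatin C, Cst3, went the other way, with 2755 in the stimulated and 3124 in the control limb and a log2 ratio of -0.18, within the probe set SD.

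Cst7, cystatin F, an inhibitor of cathepsin C in leukocytes, had a log2 ratio of -0.17, also within that SD. Serpinb1a, an inhibitor of neutrophil serine proteases, had a log2 ratio of 0.88 on its brighter probe set, 355 in the stimulated and 193 in the control limb, and -0.50 on the other. Ctla2a, which resembles a cathepsin propeptide, had one of 0.88, and Serpinb6a one of 0.44. With the signal floor at the 25th percentile, which admits further dim members, the median of the inhibitor list was -0.17. The list thus has no settled direction, and the Cstb difference stands as that of a single gene.

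Of the 13 genes of activation and lysosomal sorting, Lgmn was the most different. It encodes legumain, the asparaginyl endopeptidase that processes cathepsins B, H and L into their mature forms, and it was 2.06-fold higher, with 1130 in the stimulated and 549 in the control limb. The other 12 lay within 1.5-fold, with a median of 0.12 for the whole list. At least 1.5-fold higher was thus 1 of the 13, or 7.69%, near the 6.59% of all measured genes. At least 1.5-fold lower were 0, against 6.94%. Prcp, a lysosomal carboxypeptidase, had a log2 ratio of 0.49, with signals of 30.1 in the stimulated and 21.4 in the control limb, close to the floor.

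Sorting receptors had ratios on both sides of 0. Igf2r, the cation-independent mannose 6-phosphate receptor that carries cathepsins to the lysosome, had a log2 ratio of 0.35, but -0.11 on its second probe set. M6pr, the smaller receptor, had a log2 ratio of 0.15. Sort1, sortilin, another receptor of the route to the lysosome, had one of -0.05, and -0.51 on its second probe set, with 55.4 in the stimulated and 78.6 in the control limb. Scarb2, the receptor that brings beta-glucocerebrosidase to the lysosome, had one of -0.31 (0.08 with spike-in scaling).

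**Figure D3:**
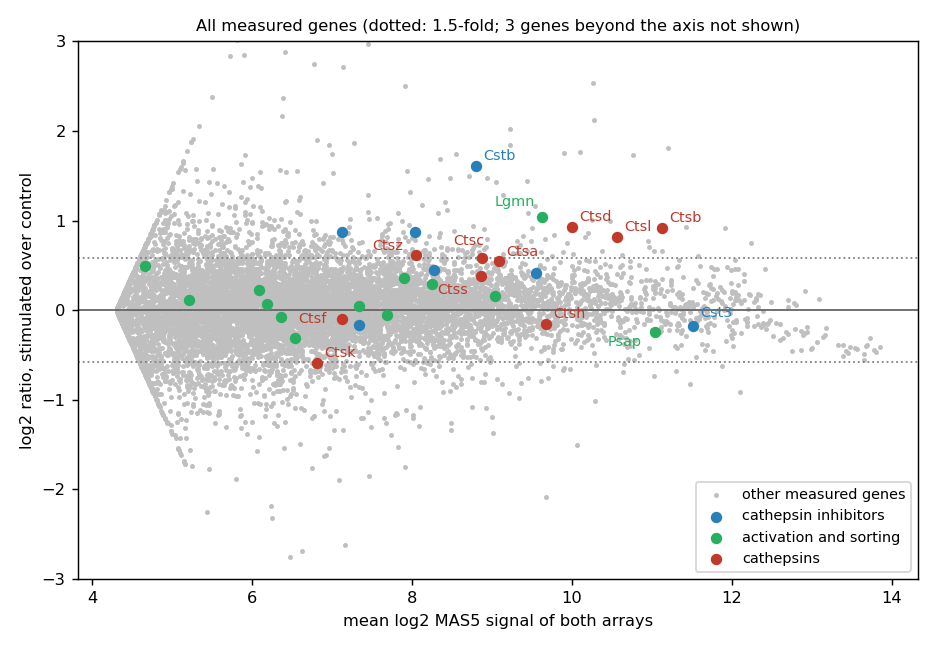
Log2 ratio of stimulated over control against the mean log2 MAS5 signal of both arrays for the 9956 measured genes (grey), with cathepsins in red, their inhibitors in blue and genes of activation and sorting in green; 3 genes beyond 3 log2 units are not shown. Cstb at 1.61 and Lgmn at 1.04 lie above every cathepsin, and Ctsk at -0.59 lies lowest of the 10, while Ctsf and Ctsh change sign with spike-in scaling. Dotted lines mark 1.5-fold.

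Other lysosomal genes were read for comparison. Among 22 measured hydrolases and membrane proteins, the median log2 ratio was 0.30 and 17 lay above 0, against 52.3% of all measured genes. Past 1.5-fold were 7 in the higher direction and 1 in the lower, where 6.59% and 6.94% of all genes lay. Cd63, a tetraspanin of late endosomes, was 1.90-fold higher, with 3776 in the stimulated and 1990 in the control limb. Npc2, the cholesterol-binding protein of the lysosome, and Naglu, a heparan sulphate glucosaminidase, had log2 ratios of 0.81 and 0.82, and Laptm5, a lysosomal membrane protein of blood cells, 0.78, with 1.22 on its second probe set. Acp5, the tartrate-resistant phosphatase that osteoclasts make together with cathepsin K, had a log2 ratio of -0.70 (-0.32 with spike-in scaling). Its signals were 23.4 in the stimulated limb, close to the floor, and 38.1 in the control limb.

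The MiT/TFE factors, which switch on lysosomal genes, and the sensing complex that controls them had a median of 0.05 over 10 measured genes. On the probe set that stands for the gene, none of the 10 was 1.5-fold different, where 6.59% of all measured genes were higher and 6.94% lower. Fnip1, at -0.05, had a second probe set at 1.25, with 67.1 in the stimulated and 28.2 in the control limb. Tfe3 had a log2 ratio of 0.56, with 111 in the stimulated and 75.2 in the control limb, and Tfeb one of -0.04. Rragc, a GTPase of the lysosomal surface, had 0.49, with 0.08 on its second probe set, and Lamtor2, a scaffold there, had 0.35. Tfec, the member found mainly in myeloid cells, had a log2 ratio of -0.36 (0.03 with spike-in scaling), with 35.9 in the stimulated and 46.0 in the control limb.

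**Figure D4:**
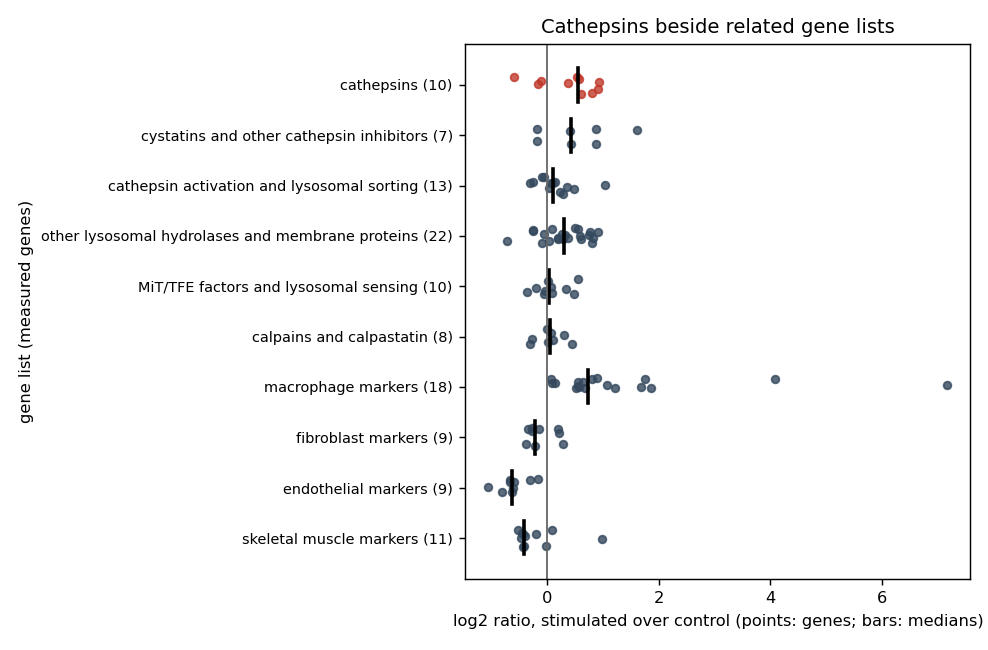
Log2 ratios of stimulated over control for the measured genes of 10 lists, with the number of genes in brackets, a point per gene and a bar at each median. The cathepsin median of 0.57 lies between those of the macrophage markers (0.75) and of the inhibitors (0.44), and the medians of the fibroblast, skeletal muscle and endothelial markers lie at -0.20, -0.40 and -0.63 as deposited. The fibroblast median turns to 0.18 with spike-in scaling and the muscle median to 0.03 with quantile normalization.

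Markers of macrophages, cells rich in lysosomes, were higher in the same sample. All 18 were measured and 18 lay above 0, against 52.3% of all measured genes, and 11 were at least 1.5-fold higher, against 6.59%. The log2 ratios ranged from 0.08 to at least 7.17, with a median of 0.75. Together their signals came to 17438 in the stimulated limb, against 6806 in the control limb, or 2.56-fold. Without Spp1 and Gpnmb the sums were 11426 in the stimulated limb, against 6606 in the control limb, or 1.73-fold. Such sums weigh bright probe sets most. None of the 18 was below the floor in the stimulated limb. Spp1 and Trem2, with 12.7 and 6.98, were below it in the control limb. Both count as measured through the stimulated limb alone, so they could only lie above 0. They are part of the 18, of the 11 and of the median. Spp1, osteopontin, was at least 144-fold higher, Gpnmb had a log2 ratio of 4.08 and Lgals3, galectin-3, one of 1.76. Trem2, a lipid-sensing receptor, was at least 3.66-fold higher. The pan-macrophage gene Cd68 had a log2 ratio of 1.08, and Cd163, Cd14 and Itgam had 0.09, 0.08 and 0.15.

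The part of these cells in the cathepsin ratios was not tested. In bulk tissue, more cells of a type and more RNA per cell cannot be told apart.

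Markers of other cells moved with the groups as well. Over the 11 skeletal muscle markers the median log2 ratio was -0.40, although it was 0.03 with quantile normalization. Ckm, Acta1 and Pvalb had -0.44, -0.47 and -0.51, and Myh2, the fast oxidative myosin heavy chain, had a signal of 2010 in the stimulated and 1008 in the control limb. Endothelial markers had a median of -0.63, with 9 of 9 below 0, where 4750 of the 9956 measured genes lay. The receptor Kdr was at -1.04 and Pecam1 at -0.80. With spike-in scaling the endothelial median was -0.24, and not all 9 would then lie below 0. Fibroblast markers, of interest for Ctsk, had a median of -0.20 (0.18 with spike-in scaling), with Col1a2 at -0.38, Col3a1 at -0.33, the proteoglycan Dcn at -0.26 and the receptor Pdgfra at 0.29. Together the signals of the 9 fibroblast markers came to 17953 in the stimulated limb, against 21358 in the control limb. None of the 9 fibroblast markers was 1.5-fold different, where 6.59% of all measured genes were higher and 6.94% lower by that much. The part of fibroblasts in the Ctsk difference was not tested.

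Members of the wider cathepsin family were mostly out of reach of these arrays. Of 9 such genes with a probe set, 7 were below the floor on both arrays: Ctse, with 19.5 in the stimulated and 17.6 in the control limb, the lymphocyte cathepsin Ctsw, the placental Ctsj, Ctsm, Ctsq and Ctsr, and Tinag. Ctso, cathepsin O, had a log2 ratio of -0.36 (0.03 with spike-in scaling), with 32.6 in the stimulated and 41.8 in the control limb. Tinagl1, a secreted protein related to cathepsin B that lacks protease activity, was 1.68-fold lower, with 110 in the stimulated and 185 in the control limb.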

How the data were processed

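Total RNA of 2 muscle samples was hybridised to 1 rat expression array each. The deposited values are probe set signals (an intensity on a linear scale) that the authors made with MAS5, per the submitters' processing notes. Its version and target are not stated, and the equal trimmed means (2% at each end) show a common scale. Signals below the floor, the 50th percentile of all non-control signals, were raised to it, log2 ratios of stimulated over control were taken, and probe sets at or above the floor on 1 array or both count as measured. Each gene stands by its measured probe set of highest mean log2 signal, and probe sets with several symbols were left out. Symbols come from the platform annotation, and all 10 members matched a RefSeq gene of GRCr8. The members, the other 14 lists and the 1.5-fold and 2-fold marks were chosen with earlier results of these data known. Named genes are the 10 cathepsins and up to 4 measured members of each other list with the largest absolute ratio. Others named (Neu1, Glb1, M6pr, Sort1, Cd74, Cst3, Cst7, Tfeb, Fnip1, Cd68, Cd163, Cd14, Itgam, Cast, Capn1, Capn3 and those below the floor) were chosen after their values were seen. The recovery of set log2 differences was tested on simulated data, in which the changed genes lay well above the floor. Counts past a fold and changes near the floor were not checked that way. Python 3.11.15, numpy 2.4.6 and pandas 2.3.3 were used. The number of arrays limits the precision.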

Additional observations from a re-analysis of the deposited data

How the results depend on the processing

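Of the 9 alternatives planned, all were run, and 1 was added after seeing the data (spike-in scaling taken relative to the median gene). With plain spike-in scaling the median gene stood at 0.39 and the cathepsin median at 0.95. Under it 7 members and 28.3% of all genes were at least 1.5-fold higher. At least 2-fold higher were 3 members, and the share of all genes at that mark was not counted. Plain spike-in scaling split all genes past 1.5-fold into 2822 higher and 181 lower, against 656 and 691 as deposited. Under the other 9 settings the cathepsin median ran from 0.44 to 0.58 and 7 members lay above 0 in each. The number of members at least 1.5-fold higher was 3 when each gene was read as its probe sets' median, 5 with the median log2 ratio set to 0 and 4 under the other 7. Of all genes, 5.97%, 6.99% and, under the other 7, 4.66% to 10.4% were that much higher. At least 1.5-fold lower was 1 member, Ctsk, and 0 with quantile normalization, with the median log2 ratio set to 0 and with plain spike-in scaling. Of all genes, 566 of 9946, 633 of 9957 and 181 of 9986 were that much lower there, in the same order. Ctsl was the only member moved by more than the probe set SD under these 9, to 0.49 as the median of its probe sets. The lymphocyte median of 0.66, over 2 genes, was -0.30 with spike-in scaling relative to the median gene. Under that setting Cd8a was at 1.72 and Cd4 at -0.60, so the -0.30 is not a median of the same 2 genes. With the floor at the 25th and 75th percentiles, 1328 and 271 genes were at least 1.5-fold higher; the higher floor left 15 named genes and 3 lists without a value, and leaving out suffixed probe sets left 2 genes without one. No paired analysis was possible because each group has 1 array. Signals near the floor of 19.8 limit what can be said of the dim relatives.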

Other observations

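The calpains, calcium-dependent proteases of the cytosol, were the other protease system of muscle read here. All 8 genes were measured, with a median log2 ratio of 0.06. On the probe set that stands for the gene, none was 1.5-fold different, where 6.59% of all measured genes were higher and 6.94% lower. Capn2 had a log2 ratio of 0.30, with 524 in the stimulated and 425 in the control limb, and Capn7 one of 0.45. Capn6, with 25.6 in the stimulated and 31.4 in the control limb, and Capn5 were close to the floor, at -0.29 and -0.26 (0.09 and 0.13 with spike-in scaling). Capn3, the muscle calpain, Capn1 and the inhibitor calpastatin, Cast, had log2 ratios of 0.03, 0.01 and 0.11, all within the probe set SD. The further probe sets of Cast had log2 ratios of -0.18 and -0.69, the latter with 59.7 in the stimulated and 96.0 in the control limb.

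Markers of cells whose proteases cathepsin C activates were few. Of 9 mast cell genes 4 were measured, with the tryptase Tpsab1 at a log2 ratio of 1.57 (68.1 in the stimulated and 22.9 in the control limb), the chymase Cma1 at 0.35, Tpsb2 at -0.50 and the carboxypeptidase Cpa3 at -0.67, a median of -0.08. Whether the probe sets of the tryptase genes Tpsab1 and Tpsb2 read each other's transcript was not checked. Of 6 neutrophil genes 2 were measured, Csf3r, at least 1.47-fold higher, and S100a9 at -0.14 (0.25 with spike-in scaling). Csf3r was below the floor in the control limb and measured through the stimulated limb alone, so their median of 0.21 rests on a bound. Of 10 lymphocyte genes 2 were measured, Cd8a, at least 3.76-fold higher, and Cd4 at -0.59. As Cd8a was likewise below the floor in the control limb, their median of 0.66 also rests on a bound. Cd3d, Cd3e, Cd8b, Cd79b, Ms4a1, Nkg7, Gzmb and Prf1 were below the floor on both arrays. Cd8a had a log2 ratio of at least 1.14 on another probe set, and its remaining probe set was below the floor on both arrays. Of 7 osteoclast and dendritic cell genes 2 were measured, Cd83 at 0.87 and Acp5, close to the floor, at -0.70, a median of 0.08. Calcr and Itgb3 were below the floor on both arrays.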
